A study of Mus musculus with 50 samples.

Results

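The cyclic AMP pathway that holds the mouse oocyte in meiotic arrest was followed through 9 genes, chosen by name: the receptors Gpr3 and Gpr12, the adenylyl cyclases Adcy3 and Adcy9, the phosphodiesterase Pde3a, the protein kinase A subunits Prkaca, Prkar1a and Prkar2b, and the guanylyl cyclase receptor Npr2. All 9 were found among the 16614 genes of the count table, and all 9 passed the filter on low counts. A fully grown oocyte stays in prophase, with its nucleus (the germinal vesicle) intact, for as long as its cyclic AMP stays high. Receptors that are active without a ligand drive the stimulatory G protein and adenylyl cyclase inside the oocyte, and cyclic AMP frees the catalytic subunits of protein kinase A from their regulatory subunits, which keeps the kinase CDK1 inactive. Cyclic GMP, made by NPR2 in the surrounding cumulus and granulosa cells, enters through gap junctions and blocks PDE3A, the phosphodiesterase that would otherwise destroy the cyclic AMP.

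Single oocytes carrying a conditional knockout of Zfp36l2, called cKO-Zfp36l2 in the labels, were compared with oocytes of F/F- mice, the floxed controls. ZFP36L2 binds AU-rich elements in the 3′ untranslated regions of mRNAs and promotes their decay. The labels give no Cre driver. All donors were females aged 5 weeks, killed 46 hours after an injection of 10 IU of the gonadotrophin PMSG, which makes follicles grow. Oocytes of both genotypes came from cumulus-enclosed complexes, were stripped of granulosa cells and zona pellucida, and were collected in medium with 5 µM milrinone, a blocker of phosphodiesterase 3 enzymes including the Pde3a product. There were 24 knockout oocytes, taken from knockout mice 1 to 4 in numbers of 1, 7, 8 and 8, and 26 floxed oocytes, taken from floxed mice 1 to 4 in numbers of 5, 7, 7 and 7. Counts of a mouse's oocytes were summed, so that the mouse was the replicate, and levels are given in CPM, the gene's part of that sum on the usual scale. CPM is a share of the counted mRNA, so a change in the whole mRNA content of an oocyte is not seen.

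Total counts ran from 1746007 to 6233840 per oocyte and from 4332108 to 44498770 per mouse, the lowest sum being that of knockout mouse 1 with its single oocyte. Zfp36l2 itself had 2.77, 1.61, 2.56 and 1.06 CPM in knockout mice 1 to 4, against 3.51, 1.96, 4.17 and 3.44 CPM in floxed mice 1 to 4 (log2 fold change −0.78, SE 0.43, edgeR adjusted p = 0.208), so the row did not check the genotype labels and the knockout libraries are so called by their labels. The marker calls below stand beside 14.4% of all tested genes higher and 13.2% lower in knockout mice by edgeR. Of 16 oocyte markers 1 was higher in knockout mice (Figla) and 1 lower (Mos), and their summed level was 6487 to 7551 CPM in knockout and 6441 to 8041 CPM in floxed mice. Of 15 tested cumulus and granulosa markers none passed edgeR's adjusted threshold. At an unadjusted p under 0.05, 2 were higher in knockout mice (Inha and Kitl) and none lower, and DESeq2 called 1 higher. The 17 markers of this list in the table summed to 422.4 to 565.1 CPM in knockout and 401.0 to 472.7 CPM in floxed mice. None of the 17 was at 0 in every mouse of a genotype. The largest part of that sum was Esr2, at 224.6 to 241.5 CPM in knockout and 196.2 to 236.3 CPM in floxed mice. Of 5 tested theca, endothelial and blood markers 3 were lower in knockout mice (Cyp11a1, Pecam1 and Kdr), with a summed level of 24.5 to 43.0 CPM in knockout and 99.0 to 191.2 CPM in floxed mice over the 8 in the table, none of them at 0 throughout a genotype. Most of that sum was Pecam1, at 18.7 to 35.7 CPM in knockout and 91.1 to 174.6 CPM in floxed mice, and the other 7 summed to 4.16 to 8.44 CPM in knockout and 7.39 to 17.7 CPM in floxed mice, which overlap. The part of this list in the results below was not tested.

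Of the 9 genes, 2 were lower in knockout oocytes at an adjusted p under 0.05 in edgeR's quasi-likelihood test, Gpr12 and Prkar2b. None was higher, also at an unadjusted p under 0.05 and by DESeq2. Over all 15029 genes tested, 27.6% were called, 14.4% higher and 13.2% lower in knockout mice, so the members' share of 2 in 9 was near the background. The same 2 genes were those without overlap between the 4 knockout and the 4 floxed mice, a property of 31.0% of all tested genes. The median log2 fold change of the 9 genes was 0.25, beside −0.0059 over all genes tested. In these libraries 1 receptor and 1 regulatory subunit were several-fold lower, and the other 7 genes had fold changes whose 95% intervals included no change in this fit.

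**Figure D1:**
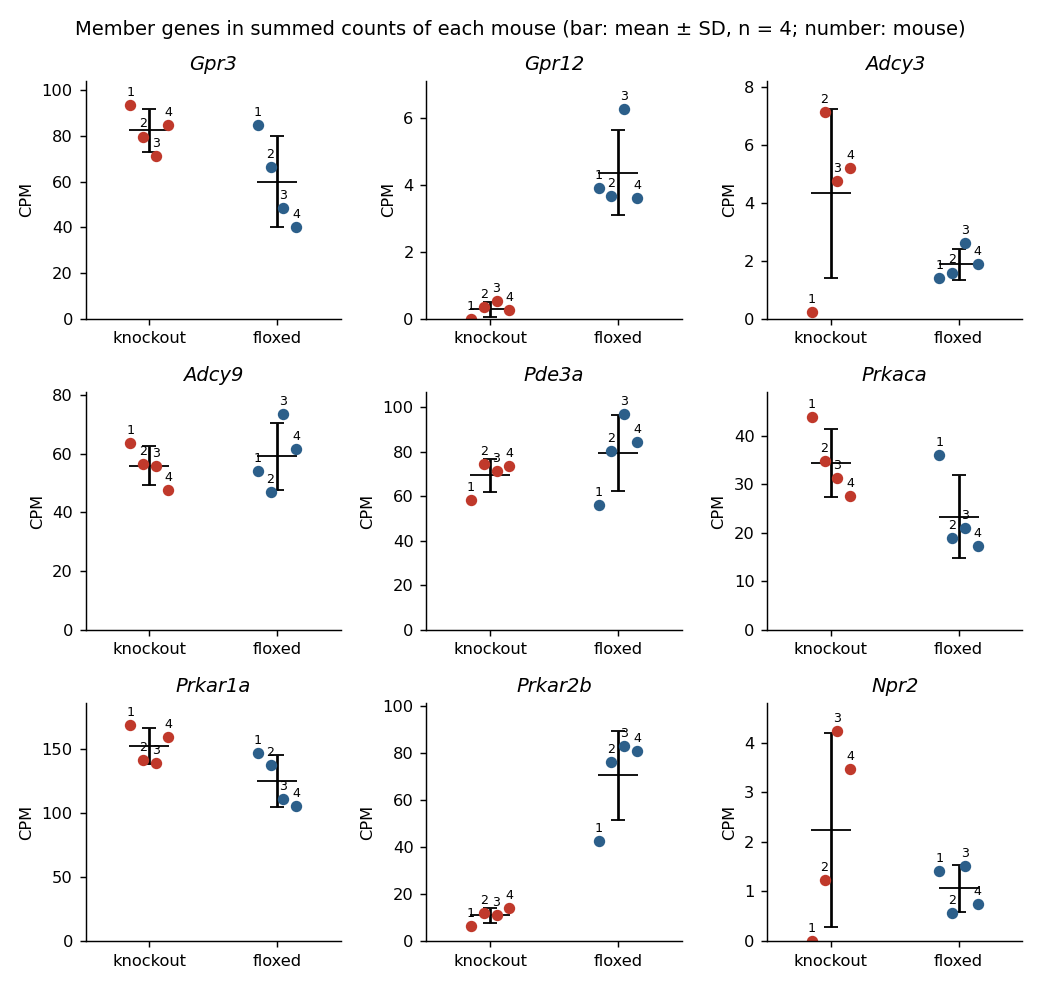
Level of each of the 9 genes (y axis, CPM of the summed counts of a mouse) in the 4 knockout and 4 floxed mice (x axis). Points are mice, numbered, and bars are the mean ± SD. Gpr12 and Prkar2b are the panels in which the genotypes do not overlap.

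Gpr3 encodes the constitutively active receptor that keeps cyclic AMP high in mouse oocytes, and mouse oocytes without it resume meiosis early. It lies on chromosome 4 from 133209340 to 133212536 (mm10, minus strand). It had 93.7, 79.8, 71.4 and 84.9 CPM in knockout mice 1 to 4, against 84.8, 66.5, 48.5 and 40.3 CPM in floxed mice. Knockout mice lay in the upper part of the range, but floxed mouse 1 lay beside knockout mouse 4. The means were 82.4 ± 9.37 CPM in knockout and 60.0 ± 19.8 CPM in floxed mice (SD, n = 4 each), and the fold change of 1.34 had a 95% interval of 0.962 to 1.87 (edgeR adjusted p = 0.170). With the mouse number fitted as a block, a pairing that the labels do not give, the log2 fold change was 0.47 (edgeR adjusted p = 0.0361). Every oocyte had Gpr3 counts, from 33.8 to 128.1 CPM in knockout oocytes with a median of 75.9, and from 26.5 to 108.1 CPM in floxed oocytes with a median of 58.1.

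The 3′ untranslated regions of the members were searched on the sense strand for TATTTAT, the heptamer core of the AU-rich element, and for the nonamer TTATTTATT that contains it, in the longest coding transcript of each gene. Gpr3 held 6 heptamers in 1027 bases, of which 5 were also nonamers, Pde3a held 3 heptamers in 8555 bases and Prkar1a 1 in 2054 bases. None was found in the other 6 genes. Of the 13883 tested genes for which such a region is annotated, 28.8% held the heptamer and 7.68% the nonamer, and 45 genes (0.324%) held 6 or more heptamers. Among genes with a region within 20% of the same length, the heptamer was in 23.7% for Gpr3, 82.9% for Pde3a and, of the genes without one, 18.7% for Gpr12 and 39.2% for Prkar2b. The heptamers of Gpr3 lie in a single run of 30 bases, as 2 abutting groups of 3 overlapping heptamers, at chr4:133209908-133209937 (mm10, minus strand), which starts 430 bases after the stop codon. The run is printed because it is the densest match among the members, and the single sites of Pde3a and Prkar1a are printed for comparison. Capitals mark the heptamers, and the DNA letters are those of the GENCODE transcripts, 5′ to 3′. The Pde3a sites lie at chr6:141505630-141505652, chr6:141506273-141506295 and chr6:141506668-141506690 and the Prkar1a site at chr11:109668311-109668333, all on the plus strand.
Gpr3 run: TATTTATTTATTTATTATTTATTTATTTAT
Pde3a site 1: attttaatTATTTATatacatac
Pde3a site 2: tgtaataaTATTTATaacccaga
Pde3a site 3: acaagttaTATTTATtttattgt
Prkar1a site: gataacttTATTTATccagctgg
Beside these matches, the 3 genes that hold the heptamer had log2 fold changes of 0.43 for Gpr3, −0.23 for Pde3a and 0.25 for Prkar1a, none of which passed the test, and both genes that fell, Gpr12 and Prkar2b, hold no heptamer in 706 and 1913 bases. A match describes letters and is no measure of binding.

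Gpr12 encodes the close relative of GPR3, likewise active without added ligand, and in rat oocytes it is the receptor tied to arrest. It lies on chromosome 5 from 146582398 to 146585239 (mm10, minus strand). It had 0, 0.351, 0.539 and 0.259 CPM in knockout mice 1 to 4, against 3.91, 3.67, 6.26 and 3.60 CPM in floxed mice 1 to 4. All 4 knockout mice lay below all 4 floxed mice. By counting error alone, the absence in knockout mouse 1 allows up to 0.693 CPM (3 counts in that mouse's total), which is also below every floxed mouse. Single oocytes of floxed mice 1, 2 and 4 were at 0 too, so the 1 oocyte of knockout mouse 1 does not fix the level of that mouse. Without knockout mouse 1 the log2 fold change was −3.57 (edgeR adjusted p = 0.000632). Gpr12 averaged 0.287 ± 0.224 CPM in knockout and 4.36 ± 1.27 CPM in floxed mice (SD, n = 4 each). It was 13.1-fold lower in knockout mice with a 95% interval of 5.49 to 31.2 (log2 fold change −3.71, SE 0.56, edgeR adjusted p = 0.00185). On the log2(CPM + 1) scale averaged over oocytes, which compresses low genes, the limma difference was −1.77.

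Among single oocytes, fewer knockout than floxed oocytes had any Gpr12 count. Gpr12 was counted in 8 of 24 knockout oocytes (0 of 1, 2 of 7, 2 of 8 and 4 of 8 in knockout mice 1 to 4), against 23 of 26 floxed oocytes (4 of 5, 6 of 7, 7 of 7 and 6 of 7). With every oocyte thinned to 1500000 counts, it was found in 7 knockout and 22 floxed oocytes. Knockout oocytes had at most 18 Gpr12 counts with a median of 0, and floxed oocytes at most 63 with a median of 17.5. The ranges overlapped at the low end, since 3 floxed oocytes had no count, but 15 of the 26 floxed oocytes were above the highest knockout oocyte. Gpr12 was also the minor receptor of the pair: per kilobase of transcript it made up 0.423 ± 0.353% of Gpr3 plus Gpr12 in knockout mice and 8.21 ± 3.55% in floxed mice, and the summed level of both was 32.9 ± 3.62 CPM per kilobase in knockout and 25.8 ± 7.73 CPM per kilobase in floxed mice (SD, n = 4 each).

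**Figure D2:**
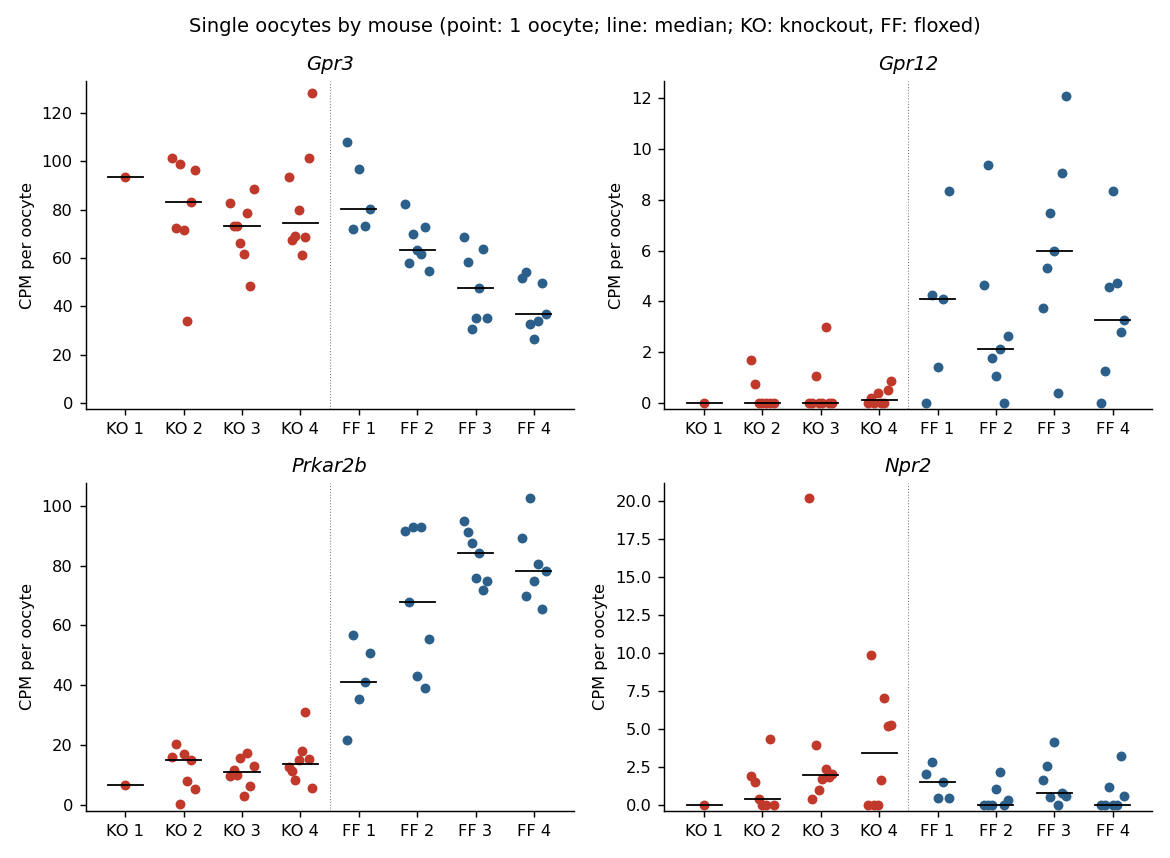
Level of Gpr3, Gpr12, Prkar2b and Npr2 in single oocytes (y axis, CPM of the oocyte's total) by mouse (x axis, knockout mice left of the floxed mice). Points are oocytes and lines the median of a mouse. Most knockout oocytes are at 0 for Gpr12, and 23 of 24 lie below every floxed oocyte for Prkar2b.

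Adcy3 and Adcy9 encode membrane adenylyl cyclases, the enzymes that make cyclic AMP when the stimulatory G protein is active. Adcy9, the more abundant, lies on chromosome 16 from 4287529 to 4420498 (minus strand). It had 63.7, 56.7, 55.9 and 47.6 CPM in knockout mice 1 to 4, against 54.0, 47.1, 73.7 and 61.6 CPM in floxed mice. The genotypes overlapped throughout, with means of 56.0 ± 6.61 CPM in knockout and 59.1 ± 11.4 CPM in floxed mice and a fold change of 0.920 (95% interval 0.708 to 1.20, edgeR adjusted p = 0.637). The sign rests on floxed mouse 3, without which the log2 fold change was 0.0013 (edgeR adjusted p = 0.996).

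Adcy3, on chromosome 12 from 4133103 to 4213525 (plus strand), was low. It had 0.231, 7.13, 4.74 and 5.20 CPM in knockout mice 1 to 4, against 1.40, 1.59, 2.61 and 1.89 CPM in floxed mice. Knockout mice 2 to 4 lay above all floxed mice, and knockout mouse 1, with 1 count in its single oocyte, lay below them. Adcy3 averaged 4.33 ± 2.92 CPM in knockout and 1.87 ± 0.530 CPM in floxed mice (log2 fold change 1.20, SE 0.65, edgeR adjusted p = 0.199). Without knockout mouse 1 the log2 fold change was 1.52 and edgeR's adjusted p 0.00791, so that mouse decided the call. Of the 24 knockout oocytes 12 were above the highest floxed oocyte. The value is uncertain on another ground: the exons of Adcy3 share 1380 bases with Cenpo on the opposite strand, and the kit does not mark strand. Cenpo had 198.1 ± 35.1 CPM in knockout and 237.1 ± 29.2 CPM in floxed mice (edgeR adjusted p = 0.154), and its part in the Adcy3 counts was not tested.

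Pde3a encodes the oocyte phosphodiesterase that destroys cyclic AMP and that cyclic GMP blocks, and mouse oocytes without it do not resume meiosis. It lies on chromosome 6 from 141249269 to 141507448 (plus strand). It had 58.4, 74.4, 71.3 and 73.6 CPM in knockout mice 1 to 4, against 56.2, 80.1, 96.8 and 84.4 CPM in floxed mice. In both genotypes mouse 1 was the lowest, and knockout mice 2 to 4 lay below floxed mice 2 to 4. The means were 69.4 ± 7.46 CPM in knockout and 79.4 ± 16.99 CPM in floxed mice, a fold change of 0.850 (95% interval 0.647 to 1.12, edgeR adjusted p = 0.357). Without floxed mouse 1 the log2 fold change was −0.41 (edgeR adjusted p = 0.0355), and without mouse 1 of both genotypes it was −0.34 (edgeR adjusted p = 0.0188). The antisense gene Gm28523 shares 741 exon bases with Pde3a, and their reads cannot be told apart without strand.

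Protein kinase A is a holoenzyme of catalytic subunits held inactive by regulatory subunits, and the members cover catalytic subunit alpha (Prkaca) and the regulatory subunits RI alpha (Prkar1a) and RII beta (Prkar2b). Prkaca, on chromosome 8 from 83972993 to 83996443 (plus strand), had 43.9, 34.9, 31.2 and 27.5 CPM in knockout mice 1 to 4, against 35.9, 18.9, 21.0 and 17.3 CPM in floxed mice. Mouse 1 was the highest of each genotype, and floxed mouse 1 alone made the genotypes overlap. Prkaca averaged 34.3 ± 7.02 CPM in knockout and 23.3 ± 8.57 CPM in floxed mice, a fold change of 1.44 (95% interval 0.964 to 2.16, edgeR adjusted p = 0.160). Without floxed mouse 1 the log2 fold change was 0.76 (edgeR adjusted p = 0.0248), and without mouse 1 of both genotypes it was 0.63 (edgeR adjusted p = 0.0147). With the mouse number fitted as a block it was 0.57 (edgeR adjusted p = 0.0239).

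Prkar1a, on chromosome 11 from 109649405 to 109669656 (plus strand), was the most abundant of the 9 genes. It had 168.5, 141.2, 139.2 and 159.3 CPM in knockout mice 1 to 4, against 146.6, 137.4, 110.6 and 105.1 CPM in floxed mice. The genotypes overlapped by floxed mouse 1. The means were 152.0 ± 14.2 CPM in knockout and 124.9 ± 20.2 CPM in floxed mice, a fold change of 1.19 (95% interval 0.980 to 1.44, edgeR adjusted p = 0.166).

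Prkar2b fell most firmly. It lies on chromosome 12 from 31958476 to 32061296 (mm10, minus strand). It had 6.46, 11.9, 11.1 and 14.1 CPM in knockout mice 1 to 4, against 42.5, 76.1, 83.1 and 80.9 CPM in floxed mice 1 to 4. The highest knockout mouse was at a fraction of the lowest floxed mouse, and mouse 1 was the lowest of both genotypes. The mean was 10.9 ± 3.21 CPM in knockout and 70.6 ± 19.0 CPM in floxed mice (SD, n = 4 each), which made Prkar2b 6.58-fold lower in knockout mice, with a 95% interval of 4.18 to 10.4 (log2 fold change −2.72, SE 0.29, edgeR adjusted p = 0.00043). Single oocytes were split almost without exception. Every oocyte had a Prkar2b count, 2 to 137 in knockout oocytes with a median of 64, and 65 to 581 in floxed oocytes with a median of 347.5. Their levels were 0.392 to 31.0 CPM in knockout and 21.7 to 102.6 CPM in floxed oocytes. Of the knockout oocytes 23 of 24 were below every floxed oocyte, the exception being 1 oocyte of knockout mouse 4.

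The make-up of the regulatory subunits differed with Prkar2b, described here without a test, since it restates the same counts per kilobase of transcript. Prkar2b made up 3.02 to 6.63% of the 4 regulatory subunits in knockout mice (mean 5.25 ± 1.56%), against 17.4 to 32.2% in floxed mice (27.5 ± 6.83%). Prkar1a made up 70.3 ± 4.44% in knockout and 47.1 ± 8.54% in floxed mice, and Prkar2a, the RII alpha subunit, 24.4 ± 3.70% in knockout and 25.2 ± 3.16% in floxed mice. Prkar1b was at 0 in every knockout mouse and at 0.248 ± 0.233% in floxed mice. Summed over the 4 subunits the level was 61.5 ± 1.96 CPM per kilobase in knockout mice, against 75.8 ± 3.04 CPM per kilobase in floxed mice (SD, n = 4 each), and the ranges of 59.5 to 63.3 and 72.2 to 78.3 did not overlap.

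**Figure D3:**
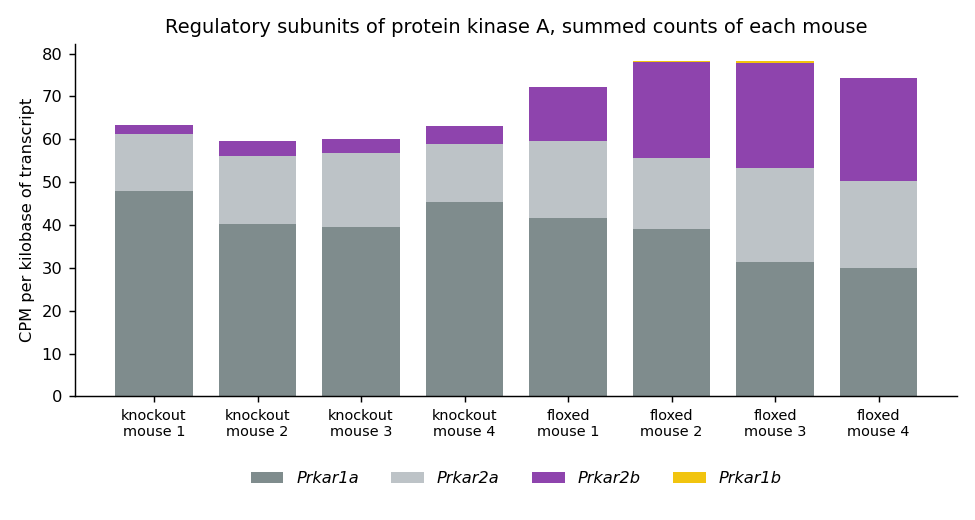
Regulatory subunits of protein kinase A in each mouse (x axis, 4 knockout then 4 floxed mice), as stacked CPM per kilobase of transcript (y axis). Prkar2b is the thin top band in knockout mice and the wide one in floxed mice, while Prkar1a is the largest band in all 8.

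The other catalytic subunits measured moved the other way from Prkar2b. Prkacb, catalytic subunit beta, had 34.6, 28.5, 31.2 and 25.3 CPM in knockout mice 1 to 4, against 14.0, 12.4, 16.2 and 12.1 CPM in floxed mice, a rise of 2.13-fold without overlap (edgeR adjusted p = 0.0034). Prkx, a related cyclic AMP-dependent kinase, averaged 39.4 ± 9.62 CPM in knockout and 11.1 ± 6.71 CPM in floxed mice and rose 3.49-fold (edgeR adjusted p = 0.0073). Pkib, a protein inhibitor of the catalytic subunits, fell to 1.32 ± 0.680 CPM in knockout mice, against 7.33 ± 5.23 CPM in floxed mice (5.96-fold lower, edgeR adjusted p = 0.0115). Of the 8 tested genes of this list, 2 were higher and 2 lower, and the other 4 (Prkaca, Prkar1a, Prkar2a and Pkig) did not pass. Over all genes tested 27.6% were called, 14.4% higher and 13.2% lower. Whether the share called in this short list differed from that was not tested. The ratio of Prkaca plus Prkacb to the 4 regulatory subunits, per kilobase and chosen after the values were seen, was 0.430, 0.367, 0.348 and 0.284 in knockout mice 1 to 4, against 0.263, 0.142, 0.165 and 0.139 in floxed mice.

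Npr2 encodes the guanylyl cyclase receptor for C-type natriuretic peptide, which supplies cyclic GMP from cumulus and granulosa cells. It lies on chromosome 4 from 43631935 to 43651244 (plus strand). In these stripped oocytes it was near the lower limit of counting, with 0, 1.23, 4.22 and 3.46 CPM in knockout mice 1 to 4, against 1.40, 0.572, 1.51 and 0.744 CPM in floxed mice. Knockout mice 3 and 4 lay above the floxed mice, and knockout mouse 2 lay among them. The 0 of knockout mouse 1, a single oocyte, allows up to 0.693 CPM, which is inside the floxed range. The means were 2.23 ± 1.96 CPM in knockout and 1.06 ± 0.469 CPM in floxed mice (log2 fold change 1.10, SE 0.81, edgeR adjusted p = 0.347). It was counted in 17 of 24 knockout and 17 of 26 floxed oocytes. A single oocyte of knockout mouse 3 held 115 Npr2 counts (20.2 CPM), which was 61.2% of that mouse's sum, and the same oocyte had the highest summed level of cumulus and granulosa markers of the 24 knockout oocytes (732.8 CPM, median 494.9). Without that oocyte, an exclusion chosen after the values were seen, the log2 fold change of Npr2 was 0.68 (edgeR adjusted p = 0.562). Esr2 was the largest part of the marker sum in every mouse, and the markers were not read singly in that oocyte. Carry-over of cumulus RNA as a part of the Npr2 counts was not tested.

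**Figure D4:**
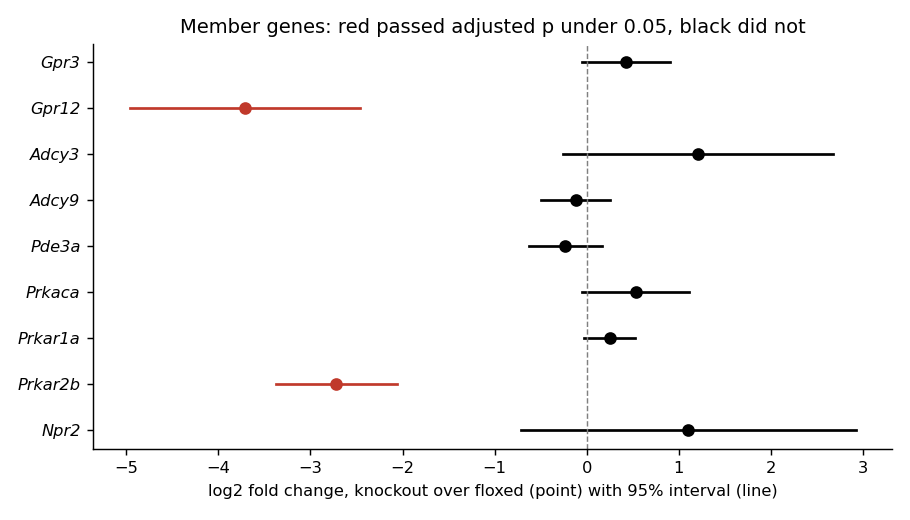
Log2 fold change of the 9 genes, knockout over floxed (x axis), with the 95% interval of the edgeR fit as a line. Gpr12 at −3.71 and Prkar2b at −2.72, in red, are the genes that passed the adjusted threshold, and every other interval crosses 0.

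Set in order of level per kilobase of transcript, the 9 genes ran in knockout mice as Prkar1a at 43.3 ± 4.05 CPM per kilobase, Gpr3 at 32.7 ± 3.72, Prkaca at 15.1 ± 3.08, Adcy9 at 11.2 ± 1.33, Pde3a at 5.64 ± 0.606, Prkar2b at 3.22 ± 0.951, Adcy3 at 0.872 ± 0.588, Npr2 at 0.609 ± 0.534 and Gpr12 at 0.129 ± 0.101. Neighbours whose ranges overlapped were Prkaca with Adcy9, and Adcy3 with Npr2 and Npr2 with Gpr12. In floxed mice Prkar1a at 35.6 ± 5.75 CPM per kilobase was followed by Gpr3 at 23.8 ± 7.88, Prkar2b at 20.9 ± 5.62, Adcy9 at 11.9 ± 2.29, Prkaca at 10.2 ± 3.77, Pde3a at 6.45 ± 1.38, Gpr12 at 1.96 ± 0.574, Adcy3 at 0.378 ± 0.107 and Npr2 at 0.289 ± 0.128. There the ranges of all neighbours overlapped except Pde3a with Gpr12 and Gpr12 with Adcy3. Prkar2b stood at place 6 in knockout mice and at place 3 in floxed mice, and Gpr12 at place 9 in knockout mice and at place 7 in floxed mice.

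Single-oocyte libraries also give the spread among the oocytes of 1 mouse, taken as the SD of log2(CPM + 1) in the 3 knockout and 4 floxed mice with several oocytes. For Prkar2b the SD averaged 0.92 over knockout mice and 0.36 over floxed mice, and for Npr2 it averaged 1.20 over knockout and 0.73 over floxed mice. Gpr12 went the other way, with 0.56 over knockout and 1.11 over floxed mice. The Prkar2b difference of 0.57 was carried in part by knockout mouse 2, whose SD was 1.38, beside 0.71 in knockout mouse 3 and 0.68 in knockout mouse 4. A single oocyte of knockout mouse 2 had 2 Prkar2b counts (0.392 CPM), where its other oocytes had 5.41 to 20.4 CPM. Without knockout mouse 2 the Prkar2b difference was 0.34. With log2(CPM + 5) the differences were 0.27 for Prkar2b, 0.31 for Npr2 and −0.34 for Gpr12, beside 0.48 for Npr2 and −0.55 for Gpr12 with log2(CPM + 1). With log2(CPM + 1) and all 7 mice, each of the 3 differences had the smallest p that the exact two-sided permutation of mice allows with 35 arrangements, 0.0286. None of the 9 genes passed after adjustment over the 9 (lowest adjusted p = 0.0857, permutation). With so few arrangements a gene could pass only if most of the 9 reached that smallest p, so the test could hardly find a difference. Adcy3 averaged 1.13 over knockout and 0.61 over floxed mice (exact permutation p = 0.0571), and the other 5 genes had exact permutation p-values of 0.171 or more. The level of a gene moves its SD at low counts, and its part here was not tested.

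The rest of the pathway was read from 8 lists of genes. Of 134 tested genes, members included, 16 were higher and 14 lower in knockout mice, which is 22.4% called, beside 27.6% over all genes. Among receptors and G proteins 1 of 18 was higher, the G protein beta subunit Gnb5 (73.6 ± 4.29 CPM in knockout and 49.3 ± 6.02 CPM in floxed mice, edgeR adjusted p = 0.0119), and 2 were lower, Gpr12 and the gamma subunit Gng12 (213.3 ± 12.0 CPM in knockout and 252.2 ± 6.08 CPM in floxed mice, edgeR adjusted p = 0.0155). The share called in this list was 16.7%. Gnb5 missed the threshold without knockout mouse 4 (edgeR adjusted p = 0.0507). Gnas, the stimulatory alpha subunit that couples GPR3 to adenylyl cyclase, had 171.2 ± 35.4 CPM in knockout and 182.9 ± 18.9 CPM in floxed mice and did not pass (edgeR adjusted p = 0.521).

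Receptor desensitisation had 2 of 10 tested genes higher and 2 lower, beside 27.6% called over all genes. Whether this list's share differed from that was not tested. The receptor kinases parted: Grk6 rose 11.5-fold to 6.98 ± 4.48 CPM in knockout mice, against 0.588 ± 0.471 CPM in floxed mice, and Grk5 fell 2.67-fold to 7.41 ± 1.29 CPM in knockout mice, against 19.2 ± 4.57 CPM in floxed mice. Ric8b, a chaperone of the stimulatory alpha subunit, averaged 14.8 ± 2.23 CPM in knockout and 5.49 ± 1.57 CPM in floxed mice and was higher (edgeR adjusted p = 0.0064). Rgs2, a regulator of G protein signalling, averaged 233.3 ± 24.6 CPM in knockout and 323.5 ± 12.8 CPM in floxed mice and was lower (edgeR adjusted p = 0.0039).

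In the adenylyl cyclase list 2 of 8 tested genes were higher and none lower, 25.0% called, beside 27.6% over all genes. None was lower at an unadjusted p under 0.05 or by DESeq2 either, and the list's median log2 fold change was 0.82. Adcy1, a calmodulin-stimulated cyclase, had 73.9, 47.4, 41.7 and 37.5 CPM in knockout mice 1 to 4, against 14.6, 8.21, 14.7 and 12.4 CPM in floxed mice. It rose 3.91-fold without overlap (95% interval 2.54 to 6.01, edgeR adjusted p = 0.0014). Cap1, the other gene that rose, is an actin-binding protein named for its link to yeast adenylyl cyclase and makes no cyclic AMP (21.9 ± 2.87 CPM in knockout and 9.32 ± 1.96 CPM in floxed mice). The list's 2 calls and its median include Cap1, and Adcy1 was the only cyclase called.

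Beside 27.6% called over all genes, cyclic nucleotide phosphodiesterases had 2 of 20 tested genes higher and 4 lower, which is near that background. Those that fell included Pde9a, specific for cyclic GMP, at 1.22 ± 0.313 CPM in knockout and 17.8 ± 2.51 CPM in floxed mice (15.2-fold lower, edgeR adjusted p = 0.0002), and Pde6b, the cyclic GMP phosphodiesterase of rod photoreceptors, at 24.0 ± 6.59 CPM in knockout and 98.2 ± 30.4 CPM in floxed mice. Pde10a, which acts on both nucleotides, had 9.51 ± 2.22 CPM in knockout and 31.1 ± 7.09 CPM in floxed mice. Pde4b, specific for cyclic AMP, was higher at 15.4 ± 5.19 CPM in knockout and 4.42 ± 1.10 CPM in floxed mice (3.43-fold, edgeR adjusted p = 0.0039). The 2 other calls, named after their values were seen, were Pde1a (lower) and Pde12 (higher), the second of which acts on oligoadenylates and poly(A) rather than on cyclic nucleotides. Pde3b, the paralogue of Pde3a, had 86.7 ± 3.70 CPM in knockout and 104.8 ± 10.8 CPM in floxed mice without overlap, and missed the threshold (edgeR adjusted p = 0.0552).

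Of 20 tested A-kinase anchoring proteins, which place protein kinase A in the cell, 1 was higher and 2 lower. That is a smaller share than the 27.6% called over all genes. Akap11 averaged 89.0 ± 11.4 CPM in knockout and 53.2 ± 7.27 CPM in floxed mice and rose 1.63-fold (edgeR adjusted p = 0.0085). Akap9 averaged 184.2 ± 25.0 CPM in knockout and 256.1 ± 43.5 CPM in floxed mice and was lower with overlap (edgeR adjusted p = 0.0304), a call lost without floxed mouse 2, 3 or 4 (edgeR adjusted p = 0.0798, 0.0791 and 0.0842). Cbfa2t3, a transcriptional corepressor that also binds the kinase, averaged 5.90 ± 6.70 CPM in knockout and 22.7 ± 8.85 CPM in floxed mice (edgeR adjusted p = 0.0439), and leaving out any mouse but knockout mouse 1 lost the call (edgeR adjusted p = 0.0628 to 0.105).

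In the cyclic GMP and gap junction list 2 of 19 tested genes were higher and 2 lower, 21.1% called, beside 27.6% over all genes. Impdh2, which makes guanine nucleotide precursors, averaged 22.5 ± 6.85 CPM in knockout and 5.66 ± 1.502 CPM in floxed mice (3.89-fold, edgeR adjusted p = 0.0019). The connexin Gjb2 fell to 0.491 ± 0.428 CPM in knockout mice, against 4.41 ± 2.10 CPM in floxed mice (edgeR adjusted p = 0.0136), and Prkg2, a cyclic GMP-dependent kinase, to 2.01 ± 1.75 CPM in knockout mice, against 14.2 ± 6.59 CPM in floxed mice (edgeR adjusted p = 0.0180). Prkg2 missed the threshold without knockout mouse 2 or floxed mouse 3 (edgeR adjusted p = 0.0550 and 0.0538). Npr1, the guanylyl cyclase receptor for atrial natriuretic peptide, had 1.67 ± 1.49 CPM in knockout and 0.228 ± 0.180 CPM in floxed mice with overlap (edgeR adjusted p = 0.0484). Leaving out any mouse but knockout mouse 1, using no filter on low counts or using limma lost the Npr1 call (adjusted p = 0.0515 to 0.151). Gja4, the connexin of the oocyte's own gap junctions, had 401.8 ± 24.0 CPM in knockout and 441.8 ± 50.9 CPM in floxed mice and did not pass (edgeR adjusted p = 0.183).

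Other effectors and targets of cyclic AMP gave 4 higher and no lower genes of 31 tested at the adjusted threshold. At an unadjusted p under 0.05, 5 were lower, and 3 were lower by DESeq2. The 4 calls made up 12.9% of the list, where over all genes 14.4% were higher and 13.2% lower. The 4 were the transcription factors Creb1 (19.4 ± 2.77 CPM in knockout and 10.9 ± 0.565 CPM in floxed mice) and Creb3 (54.8 ± 2.66 CPM in knockout and 30.2 ± 4.13 CPM in floxed mice), the CDK1-activating phosphatase Cdc25b (1.62-fold) and the CDK1-inhibiting kinase Wee1 (49.6 ± 9.50 CPM in knockout and 27.6 ± 6.21 CPM in floxed mice). Creb1 missed the threshold without knockout mouse 3 (edgeR adjusted p = 0.0559), and Wee1 without knockout mouse 2 or floxed mouse 2 or 4 (edgeR adjusted p = 0.0699, 0.0523 and 0.0583). Wee2, the oocyte form of the inhibitory kinase and a substrate of protein kinase A, had 510.7 ± 22.7 CPM in knockout and 561.7 ± 41.6 CPM in floxed mice and did not pass (edgeR adjusted p = 0.122).

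**Figure D5:**
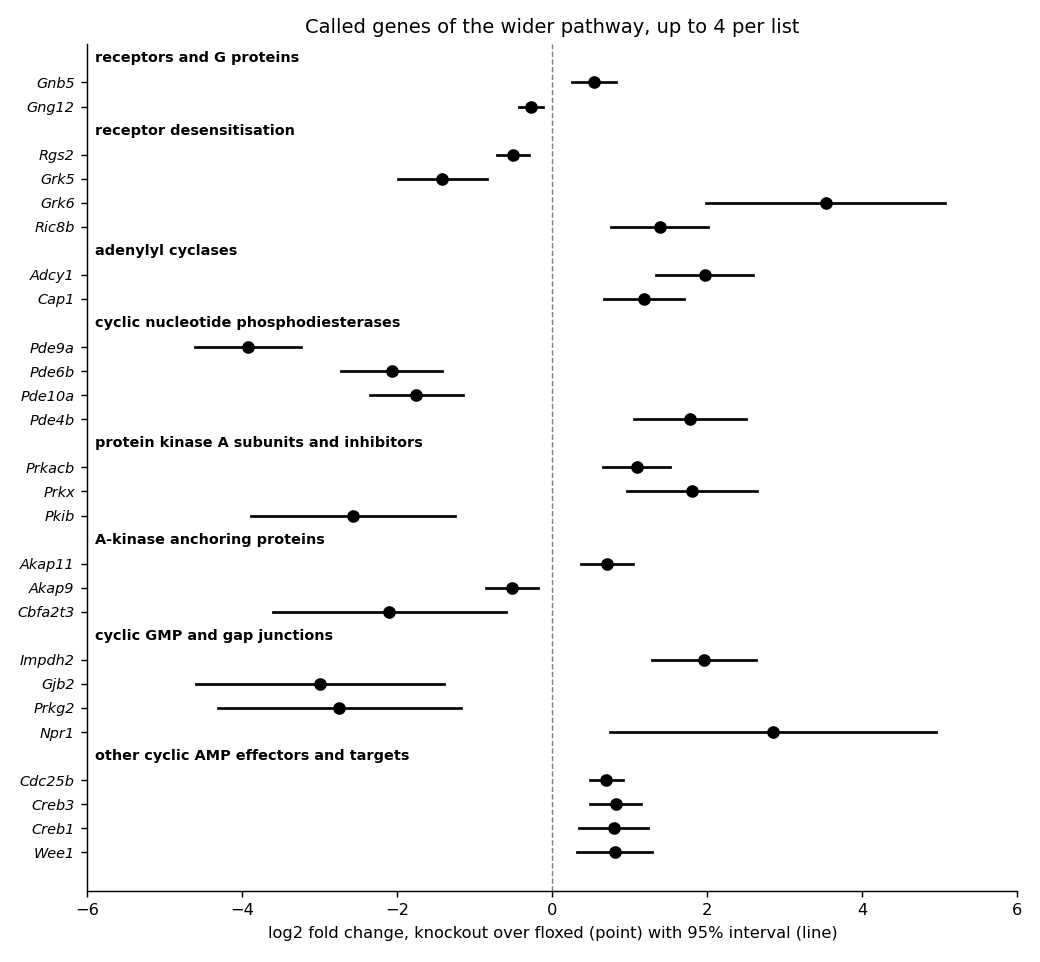
Log2 fold change, knockout over floxed (x axis), of the called genes in each of the 8 lists other than the 9 members, up to 4 a list by smallest p. Points are edgeR estimates and lines their 95% intervals. Genes lie on both sides of 0 in most lists, and to the right only in the cyclase list, Cap1 included, and in the list of other effectors.

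Genes whose profile over the 8 mouse sums was most like that of a called member were found by Pearson's r of log2(CPM + 1) among 9137 genes. This is a description, since the 8 mice fall into the 2 genotypes and all values share their libraries. For Prkar2b the closest were Scg3 (r = 0.998), Sycp1 (r = 0.996) and Stk39 (r = 0.995). Stk39, a kinase of ion transport control, had 0.956 ± 0.584 CPM in knockout and 25.6 ± 11.7 CPM in floxed mice, and the synaptonemal complex gene Sycp1 had 11.6 ± 2.65 CPM in knockout and 40.8 ± 8.95 CPM in floxed mice. The closest to Gpr12 were Arhgef3 (r = 0.996), Ublcp1 (r = 0.989) and Plekhb1 (r = 0.986), of which Plekhb1 had 15.1 ± 2.53 CPM in knockout and 59.7 ± 9.26 CPM in floxed mice.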

How the data were processed

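RNA-seq libraries of 50 single mouse oocytes were analysed. The values deposited by the authors are whole-number counts of reads per gene, not normalized. Trizol extraction and the SMARTer Ultra Low Input kit are named in the labels' protocols. The kit primes on poly(A), does not mark strand and carries no molecular identifiers, so counting limits cover counting error only. STAR and mm10 are named in the submitters' processing notes, and the sources used here do not name the counting tool. The table held no further column of sample values.

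Genotype and mouse number were read from the sample titles. All 150 pairs of oocytes of 1 mouse were compared by chi-square of their counts (5.41 to 29.82 per degree of freedom), and no pair was taken for copies. The labels do not say more of the mice than their numbers. Counts were summed per mouse and tested over all genes with edgeR 4.0.16 in R 4.3.3 (TMM, filterByExpr with a minimum count of 10, robust quasi-likelihood test, Benjamini-Hochberg adjustment, threshold 0.05). The biological coefficient of variation was 35.4%. The standard error is the size of the log2 fold change divided by the square root of F. Alternatives used DESeq2 1.42.0 and limma 3.58.1, and the edgeR script was tested on simulated data. Rows were matched to GENCODE annotation of mm10 by RefSeq accession (16350) or symbol (186), with 78 not matched, and lengths are those of the longest coding transcript.

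The 9 members, the lists and the tests were chosen with earlier results of these data known. Genes named are the 9 members, up to 4 called genes a list by smallest p, the 3 genes most like each called member, and the markers. Relatives outside this rule (Gnas, Prkar1b, Prkar2a, Pkig, Pde1a, Pde3b, Pde12, Gja4 and Wee2) and Cenpo, which overlaps Adcy3, were added after their values were seen.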

Additional observations from a re-analysis of the deposited data

Results flagged for a closer look

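Within a genotype, 1 mouse stood far from the other 3 in 7 of the 70 sets of 4 values examined (35 genes, each genotype apart). Chance alone gives such a gap in about 1 set in 20 where sets are independent. These sets share the same mice, so the 2 rates cannot be compared strictly. Gpr12 had 6.26 CPM in floxed mouse 3, where the other floxed mice had 3.60 to 3.91 CPM. Gng12 had 243.2 CPM in floxed mouse 4, below the 254.7 to 256.4 CPM of the other floxed mice. Prkx had 21.1 CPM in floxed mouse 1, beside 7.18 to 8.62 CPM in the other floxed mice, and Pkib had 15.1 CPM in the same mouse, beside 3.92 to 5.15 CPM. Cbfa2t3 had 15.9 CPM in knockout mouse 1, beside 1.93 to 3.03 CPM in the other knockout mice, and Creb3 had 50.8 CPM in that mouse, beside 55.6 to 56.4 CPM. Npr1 had 0.496 CPM in floxed mouse 4, beside 0.104 to 0.163 CPM in the other floxed mice.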

How the results depend on the processing

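Gpr12 and Prkar2b passed in all 16 alternatives, with log2 fold changes of −4.13 to −1.77 and −2.93 to −2.60, and adjusted p up to 0.0084 and 0.0028. Of the 9 members 2 were called under the other normalization, DESeq2, no filter, limma on oocyte means and thinned oocytes. With the mouse number as a replicate block 4 were called, Gpr3 (log2 fold change 0.47, adjusted p = 0.0361) and Prkaca (0.57, adjusted p = 0.0239) being added, and over all genes 38.7% were called. Same-numbered mice had correlated deviations of 0.317, −0.0034, 0.248 and 0.181 for numbers 1 to 4. Knockout mice 1, 3 and 4 correlated best with their own number and knockout mouse 2 with another, so the numbers were not taken to pair mice. The labels do not say whether same-numbered mice shared a litter or day. Without mouse 1 of both genotypes 5 were called (Adcy3, Pde3a and Prkaca added) and 43.9% of all genes. Leaving out 1 mouse at a time gave 2 to 4 called members and 17.7 to 34.7% of all genes, the 4 arising without floxed mouse 1.

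Adcy9 changed sign without floxed mouse 3 (−0.23 to 0.0013 over the mice left out). The difference in spread changed sign for Gpr3 without knockout mouse 2 (−0.0097 to 0.126 over the mice left out) and for Adcy9 without floxed mouse 4 (−0.092 to 0.073). No difference in spread passed the threshold with thinned oocytes or log2(CPM + 5), where the few arrangements limit the test as in the main fit. With 1 mouse left out none could pass, since the smallest exact permutation p was then 0.0667 or 0.1, so these fits say nothing of stability. The causes were not tested. The pathway lists held 30 calls, and 32 under the other normalization. Low genes limit the reading: knockout mouse 1 was a single oocyte, and its 0 for Gpr12 and Npr2 allows 0.693 CPM by counting error alone.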
